A study of Mus musculus with 100 samples.

Results

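The levels of 10 neuronal cytoskeleton and growth cone genes, Tubb3, Dcx, Map2, Mapt, Stmn2, Gap43, Nefl, Nefm, Nefh and Ina, were followed in mouse embryonic stem cells, in cultures differentiated from them and in whole embryos. The genes were taken as a fixed list, by symbol, out of 23109 genes with an entry in the deposited tables, and each is represented by its transcript with the most reads. Levels are CPM, the reads of that transcript scaled to the library total over 1 transcript per gene. All 10 had enough reads to be tested in the joint fit behind each comparison below (alternative fits that leave 1 out say so).

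Neurons build 2 polymer systems into their axons and dendrites that these genes serve. Microtubules are made of tubulin (Tubb3 is the beta-tubulin of neurons) and are bound and stabilised by doublecortin (Dcx), by MAP2 in dendrites and by tau (Mapt) in axons, while SCG10 (Stmn2) makes them dynamic and GAP-43 (Gap43) acts at the membrane of growing axon tips. Neurofilaments are the intermediate filaments of neurons and are assembled from a light (Nefl), a medium (Nefm) and a heavy (Nefh) subunit together with alpha-internexin (Ina). In the developing brain Tubb3, Dcx, Stmn2 and Ina appear early in newborn neurons, and Nefh is known as a late subunit of mature axons.

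The data are poly(A) RNA sequencing tables of 37 libraries in 18 groups, out of 100 samples in the series. The other 63 samples are mainly chromatin libraries and were not analysed here. All cultured cells are labelled Mll3-/-, and differ in Mll4: the reference cells are Mll3-/-;Mll4flox/flox ("flox") and the compared cells are Mll3-/-;Mll4KI/KI ("KI", lines 27 and 48 in the titles). Mll3 and Mll4 (Kmt2c and Kmt2d) encode histone H3K4 methyltransferases. What KI changes in the protein is not written in the labels, and the study is titled for the methyltransferase activities of the 2 enzymes. Stem cells grown with 2 kinase inhibitors and LIF (ESC, day 0) were aggregated into embryoid bodies (EB, days 4 and 10) as 1 flox library and 1 library of each KI line per day. For neural cultures, aggregates received retinoic acid after day 4 and were dissociated at day 8 (labelled neural progenitor cells). They were plated and sampled again at day 16 (labelled neurons). Each day had flox libraries numbered 1 and 2 and libraries of KI lines 27 and 48. The titles do not say whether flox 1 and 2 are separate lines. Trophectoderm cultures (day 6) carried an inducible CDX2 vector, extraembryonic endoderm cultures (day 5) received retinoic acid and Activin A, and each had 2 flox and 2 KI libraries. KI embryos are Mll3flox/KI;Mll4flox/KI;Sox2-Cre and control embryos Mll3flox/KI;Mll4flox/+;Sox2-Cre, so both groups share the Mll3 alleles, a floxed Mll4 allele and a Cre that the Sox2 promoter drives in the epiblast. There were 3 embryos of each genotype at E8.5 and 3 at E9.5.

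Promoter sequence from RefSeq (GRCm38.p6) could be matched for 4 of the 10 genes, and 1 window of each is shown because these 4 were the members with an entry. All 4 were lower in KI embryos at E9.5 and higher in KI neural cultures at day 16, as were Stmn2, Nefl and Nefm. Each run is the 250 bases before the annotated start, 5′ to 3′ on the gene's strand: Tubb3 at chr8:123411303-123411552 on the plus strand, Dcx at chrX:143933125-143933374 on the minus strand, Map2 at chr1:66175079-66175328 on the plus strand and Ina at chr19:47014431-47014680 on the plus strand. Capitals mark matches, on either strand, to 4 motifs. The E-box searched was CAGCTG, a site for proneural factors. The GC box searched was GGGCGG, which Sp family factors are known to recognise. The element bound by nuclear factor Y was searched as CCAAT. The element near many start sites that the basal machinery recognises was searched as TATAAA.
Tubb3: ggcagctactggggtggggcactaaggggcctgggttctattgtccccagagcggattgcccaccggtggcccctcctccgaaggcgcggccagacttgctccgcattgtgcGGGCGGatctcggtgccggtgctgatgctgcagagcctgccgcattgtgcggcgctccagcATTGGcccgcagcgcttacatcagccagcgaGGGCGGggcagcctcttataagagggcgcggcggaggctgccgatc
Dcx: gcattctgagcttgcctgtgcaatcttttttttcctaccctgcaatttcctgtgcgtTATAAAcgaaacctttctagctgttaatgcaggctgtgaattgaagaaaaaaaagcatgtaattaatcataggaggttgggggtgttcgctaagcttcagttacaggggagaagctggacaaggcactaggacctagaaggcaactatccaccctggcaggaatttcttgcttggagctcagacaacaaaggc
Map2: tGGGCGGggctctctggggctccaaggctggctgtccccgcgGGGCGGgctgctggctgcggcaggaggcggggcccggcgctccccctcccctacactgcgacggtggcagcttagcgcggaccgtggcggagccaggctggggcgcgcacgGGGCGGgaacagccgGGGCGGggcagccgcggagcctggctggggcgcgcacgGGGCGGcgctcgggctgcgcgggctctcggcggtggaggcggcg
Ina: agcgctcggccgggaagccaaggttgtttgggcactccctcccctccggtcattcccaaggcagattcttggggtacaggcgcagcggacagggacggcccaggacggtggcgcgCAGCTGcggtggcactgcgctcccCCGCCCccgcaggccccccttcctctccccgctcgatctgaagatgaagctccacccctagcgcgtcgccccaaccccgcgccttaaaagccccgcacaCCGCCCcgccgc
The GC content of these windows was 68.0% for Tubb3, 44.8% for Dcx, 81.2% for Map2 and 70.8% for Ina, against a median of 52.4% over 32851 promoter windows of the same length. Map2 held 5 GC boxes, Tubb3 2 and Ina 2, and a GC box occurs in 32.7% of all windows. Tubb3 also held 1 CCAAT box, a motif of 33.8% of windows. Dcx held a TATAAA match, a motif of 12.4% of windows, and Ina the E-box, a motif of 13.0%. A second Dcx window, at chrX:143933220-143933469 and not printed, overlaps the one shown and held a TATAAA match and a CCAAT box. Neither the E-box CAGATG (14.4% of windows) nor TGACGTCA (1.5%) occurred in them. So the 4 promoters had no searched motif in common, and these matches are a description of sequence only.

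The tables held from 25.4 M to 83.9 M reads per library, and a count of 3 reads, the lowest level read here, was 0.05 to 0.159 CPM. Replicates differed by more than counting noise in all 23 pairs (chi-square per degree of freedom of 1.50 for the 2 flox libraries at neural day 8 and 2.76 to 54.8 for the others). Nothing in the labels says that replicates came from separate cultures, so p-values for cultures measure the spread between these libraries, which may be partly technical. Whole-transcript Kmt2c reads (27.6 to 99.4 CPM in cultures) and Kmt2d reads (148.7 to 333.6 CPM) do not show whether an allele works and check no label. The neuron marker list fitted the labels: its 12 genes summed to 4070 to 5613 CPM in the 4 libraries of neural day 16 and to 12.5 to 21.6 CPM in trophectoderm and extraembryonic endoderm cultures.

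The 4 neural groups had the 4 highest mean levels for 7 of the genes (Tubb3, Dcx, Map2, Mapt, Gap43, Nefl and Ina), and the KI cultures at day 16 were the highest group for all but Nefm. Stmn2 and Nefh were exceptions of another kind, since stem cells came within the range of the neural groups. Nefm was highest in flox neural cultures at day 8 and in control embryos at E9.5, which overlapped. In the plot of levels by library, replicates of a group lay close together beside the largest differences between groups. They did not beside smaller ones, such as most of those between genotypes at E8.5. Control embryos at E9.5 ran from 0.159 to 0.940 CPM for Nefh and from 5.95 to 14.4 CPM for Dcx.

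**Figure D1:**
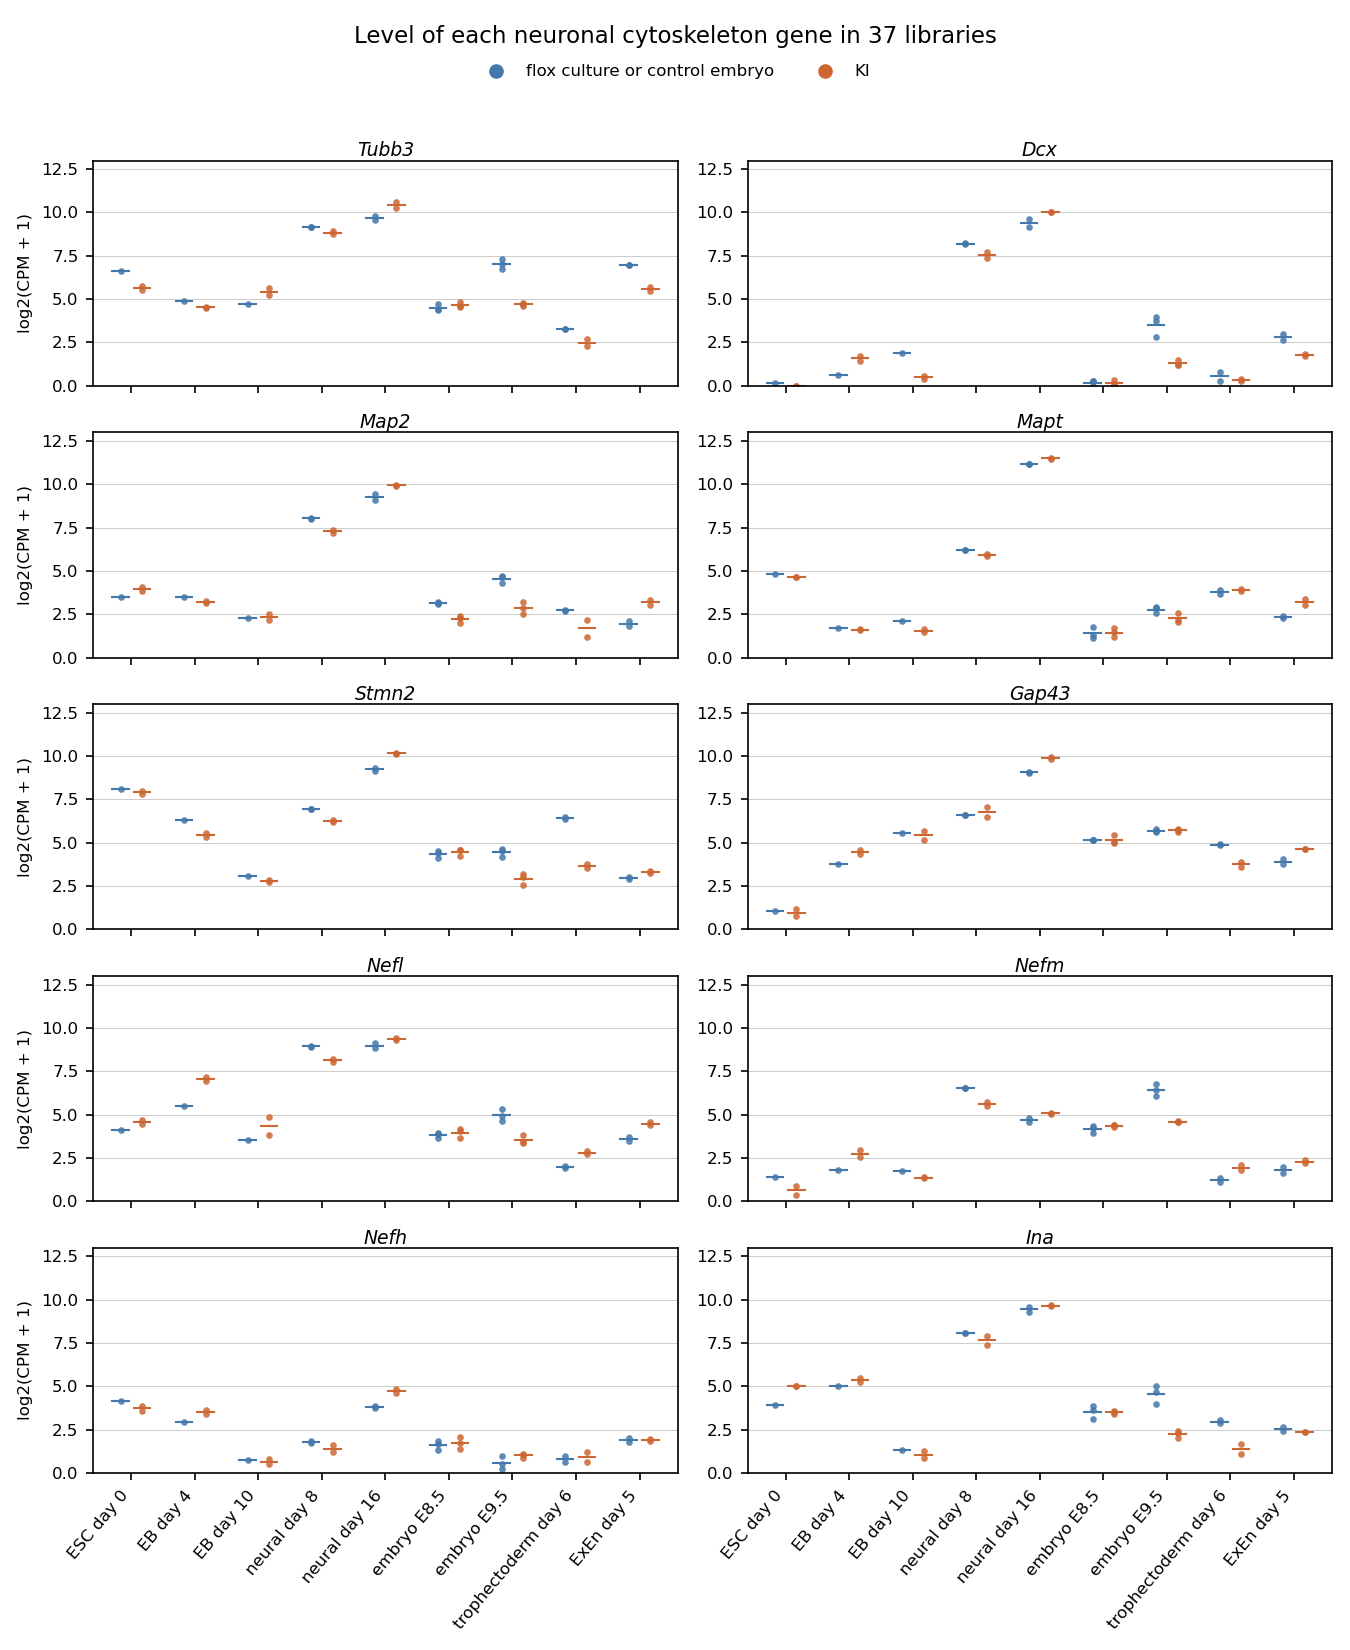
Level of each gene in each of 37 libraries, as log2(CPM + 1); points are libraries, short lines the mean of each group, blue the flox cultures or control embryos and orange the KI ones, and ExEn is extraembryonic endoderm. KI neural cultures at day 16 are highest in every panel except Nefm, and Stmn2 stands between 229 and 275 CPM in stem cells.

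In neural cultures several of the genes were lower in KI than in flox cells at day 8, and all were higher at day 16. At day 8, 5 of the 10 passed the test as lower in KI and none as higher (Dcx, Map2, Stmn2, Nefl and Nefm), where 19.5% of all 16439 genes tested passed 6.3% as higher and 13.2% as lower. At day 16, all 10 were higher in KI, by 0.41 to 1.18 on the log2 scale, where 46.9% of genes passed, 27.1% as higher and 19.7% as lower. The median log2 fold change of the 10 was -0.58 at day 8 and 0.84 at day 16, against 0.0047 and 0.086 over all genes tested. Tests are edgeR's quasi-likelihood test with Benjamini-Hochberg adjustment over all genes, a gene passes at an adjusted p under 0.05, and fold changes carry their standard error (SE). In bulk RNA, fewer neurons and less of a transcript in each neuron cannot be told apart.

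Of the microtubule genes, Tubb3 had 572 and 577 CPM in flox libraries 1 and 2 and 485 and 425 CPM in KI lines 27 and 48 at day 8. At day 16 it had 754 and 901 CPM in flox and 1204 and 1557 CPM in KI. Both KI lines were below both flox libraries at day 8 and above both at day 16. The day 8 difference did not pass (log2 fold change -0.30 ± 0.14 (SE), adjusted p = 0.163, and 0.0271 when the day 8 libraries were fitted alone), and the day 16 difference did (0.94 ± 0.14, adjusted p = 0.000186). Dcx, which binds microtubules in migrating young neurons, had 301 and 287 CPM in flox and 212 and 162 CPM in KI at day 8, and 801 and 580 CPM in flox and 1038 and 1055 CPM in KI at day 16. Its groups did not overlap on either day. Dcx was lower in KI at day 8 (-0.62 ± 0.15, adjusted p = 0.0105) and higher at day 16 (0.80 ± 0.15, adjusted p = 0.00099). The day 8 call of Dcx was lost without flox library 1 (adjusted p = 0.0607) or without KI library 48 (adjusted p = 0.126).

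Map2, the dendritic microtubule-associated protein, had 267 and 258 CPM in flox and 166 and 145 CPM in KI at day 8, and 687 and 554 CPM in flox and 957 and 1012 CPM in KI at day 16. It again changed order between the days, with log2 fold changes of -0.73 ± 0.12 (adjusted p = 0.000658) and 0.87 ± 0.12 (adjusted p = 8.52e-05). Mapt had the largest rise of the 10 with time. It stood at 73.0 and 72.4 CPM in flox and 61.4 and 57.0 CPM in KI at day 8, and at 2345 and 2352 CPM in flox and 2819 and 2946 CPM in KI at day 16, which is 32.3 times the day 8 mean in flox and 48.7 times in KI. The KI libraries lay below the flox libraries at day 8 (-0.26 ± 0.09, adjusted p = 0.0654, and 0.0146 when the day 8 libraries were fitted alone) and above them at day 16 (0.50 ± 0.09, adjusted p = 0.000838).

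Of the growth cone genes, Stmn2 passed the test on both days and Gap43 at day 16 only. Stmn2, whose product frees microtubule ends for growth, had 123 and 121 CPM in flox and 77.1 and 73.3 CPM in KI at day 8, and 645 and 568 CPM in flox and 1106 and 1172 CPM in KI at day 16. Stmn2 was lower in KI at day 8 (-0.66 ± 0.10, adjusted p = 0.000381) and higher at day 16 (1.11 ± 0.10, adjusted p = 3.46e-06), with no overlap on either day. Gap43 had 96.5 and 95.7 CPM in flox and 134 and 87.2 CPM in KI at day 8, so the 2 KI lines lay on either side of the flox libraries. Its day 8 difference of 0.24 ± 0.16 did not pass (adjusted p = 0.362), turned to -0.10 without KI library 27 and passed as 0.51 without KI library 48 (adjusted p = 0.0123). At day 16 Gap43 had 527 and 547 CPM in flox and 910 and 999 CPM in KI, all KI above all flox (1.03 ± 0.16, adjusted p = 0.000238).

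Among the intermediate filament genes, Nefl and Nefm were lower in KI at day 8. Nefl had 479 and 503 CPM in flox and 290 and 265 CPM in KI at day 8, and 451 and 565 CPM in flox and 633 and 683 CPM in KI at day 16. The log2 fold changes were -0.79 ± 0.12 (adjusted p = 0.000442) and 0.58 ± 0.12 (adjusted p = 0.00183), and the groups did not overlap. Nefm had 91.4 and 92.8 CPM in flox and 52.3 and 44.9 CPM in KI at day 8, and 23.1 and 26.5 CPM in flox and 31.9 and 33.6 CPM in KI at day 16. KI was lower at day 8 (-0.89 ± 0.10, adjusted p = 6.28e-05) and higher at day 16 (0.61 ± 0.11, adjusted p = 0.000635), again without overlap. Nefl and Nefm are neighbouring protein-coding genes on 1 chromosome in the RefSeq annotation.

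Nefh, the heavy subunit, was the least abundant of the 10 in neural cultures. It had 2.62 and 2.33 CPM in flox and 2.02 and 1.31 CPM in KI at day 8, and 13.7 and 12.7 CPM in flox and 23.7 and 28.1 CPM in KI at day 16. The day 8 difference did not pass (-0.54 ± 0.21, adjusted p = 0.0913, and 0.0311 without KI library 27), and that of day 16 did (1.18 ± 0.15, adjusted p = 6.87e-05). Ina, the early neurofilament partner, had 268 and 270 CPM in flox and 240 and 168 CPM in KI at day 8, and 629 and 776 CPM in flox and 805 and 812 CPM in KI at day 16. Its day 8 difference did not pass (-0.37 ± 0.15, adjusted p = 0.118, and 0.0127 without KI library 27). Ina was the weakest call of day 16 (0.41 ± 0.15, adjusted p = 0.0406), and lost it without flox library 1 (adjusted p = 0.264), without KI library 27 (0.0907), without KI library 48 (0.133) and when the day 16 libraries were fitted alone (0.0603).

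**Figure D2:**
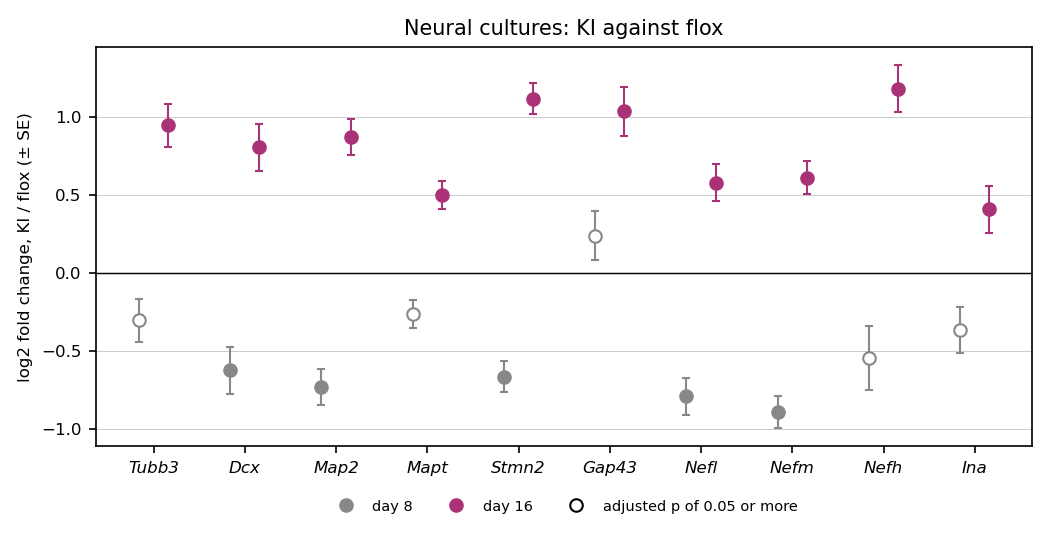
Log2 fold change of KI against flox neural cultures for each gene, with bars of 1 SE; grey is day 8, purple day 16, and open circles did not pass an adjusted p of 0.05. All 10 purple points lie above 0, from 0.41 for Ina to 1.18 for Nefh, and 9 of the 10 grey points lie below it.

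From day 8 to day 16 most of the genes rose in both genotypes. In flox cultures 8 of the 10 rose and 1 fell (77.1% of genes passed, 38.4% as higher and 38.7% as lower), and in KI cultures 9 rose and 1 fell (79.9% of genes passed, 40.7% as higher and 39.2% as lower). Nefm was the gene that fell, by 1.86 on the log2 scale in flox (SE 0.11, adjusted p = 7.51e-09) and by 0.36 in KI (SE 0.10, adjusted p = 0.00647). The fall in KI was lost without KI library 27 of day 8 (adjusted p = 0.084) or of day 16 (adjusted p = 0.0559). Nefl rose in KI (1.45 ± 0.12, adjusted p = 1.84e-07) and had overlapping libraries on the 2 days in flox (0.08 ± 0.12, adjusted p = 0.524). The rise of Mapt was 5.05 ± 0.11 in flox (adjusted p = 5.53e-12) and 5.81 ± 0.11 in KI (adjusted p = 1.37e-12), and that of Stmn2 2.35 ± 0.10 and 4.13 ± 0.11.

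The change of the KI difference between the days was itself tested, and was positive for all 10 genes (33.2% of genes passed, 19.2% as higher and 14% as lower). It ranged from 0.76 ± 0.13 for Mapt (adjusted p = 0.000836) to 1.78 ± 0.14 for Stmn2 (adjusted p = 4.49e-06), with Nefh at 1.72 ± 0.25 (adjusted p = 0.000343) and Map2 at 1.60 ± 0.16 (adjusted p = 2.54e-05). The 2 weakest were Gap43 (0.80 ± 0.22, adjusted p = 0.0159) and Ina (0.77 ± 0.21, adjusted p = 0.0145). Gap43 lost its call without flox library 1 of day 16 (adjusted p = 0.0823), flox library 2 of day 16 (0.074) or KI library 48 of day 16 (0.0591), and Ina without flox library 1 of day 16 (0.0641).

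Of 29 further genes tested, out of a list of 30 tubulins, microtubule-associated proteins, stathmins, collapsin response proteins, growth cone and motor proteins of neurons, 13 were lower and 1 higher in KI at day 8, and 24 were higher and 1 lower at day 16. The median log2 fold change of these 29 was -0.31 at day 8 and 0.62 at day 16. At day 8 the largest falls among them were of Prph (-2.53), Stmn4 (-1.19) and Dpysl3 (-0.98), and the 1 gene that was higher was Map1b (0.31), a microtubule-associated protein of growing axons. At day 16 the largest were Stmn4 (1.07), Stmn3 (1.01) and Map1a (1.00). The 1 lower gene at day 16 was Prph (-1.73), the intermediate filament peripherin of peripheral neurons, which was at 1.86 and 2.15 CPM in flox and 0.482 and 0.205 CPM in KI at day 8, and at 1.58 and 1.59 CPM in flox and 0.407 and 0.417 CPM in KI at day 16. A list of 15 cytoskeleton genes that are not particular to neurons held common tubulins, actins and lamins beside keratins, vimentin and nestin, and of these none were higher and 2 lower at day 8, and 6 were higher and 7 lower at day 16 (median -0.19). The 6 higher genes were the tubulins Tubb4b (0.76), Tuba1c (0.73), Tuba1b (0.72) and Tubb5 (0.52) and the actins Actg1 (0.70) and Actb (0.52), all 6 named after their values were seen. Their log2 fold changes lay within the range of the 10 neuronal genes. Krt19 (-6.55) and Krt18 (-4.33), keratins of epithelia, had the largest falls. Another tubulin of the list, Tubb6 (-1.05), was among the 7 lower genes.

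Markers of other cell types moved in the same libraries. All 8 mesothelium and fibroblast markers were lower in KI at day 16 (median -2.23, led by Upk3b at -8.18 and Msln at -4.79), and their summed level was 3475 to 3635 CPM in flox and 712 to 923 CPM in KI, with Msln at 0 in KI library 27. At day 8, 5 of the 8 were lower, with sums of 346 CPM in both flox libraries and 112 to 158 CPM in KI. The 12 neuron markers outside the cytoskeleton were all higher in KI at day 16 (median 0.62, led by Snap25 at 1.27), with sums of 4070 to 4391 CPM in flox and 5613 CPM in both KI libraries. At day 8, 6 of the 12 were lower and none higher. Of 11 neural progenitor markers 6 were higher and 2 lower in KI at day 8, with sums of 1589 to 1600 CPM in flox and 1759 to 1760 CPM in KI. At day 16, 3 of the 11 were higher and 2 lower (median 0.12), with sums of 710 to 753 CPM in flox and 616 to 738 CPM in KI. The part of these markers' cells in the levels of the cytoskeleton genes was not tested.

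In whole embryos most of the genes were lower in KI at E9.5, while 9 of the 10 did not pass the test at E8.5. At E9.5, 7 of the 10 were lower in KI and none higher (29.5% of 15436 genes passed, 14.9% as lower). At E8.5 only Map2 was lower (5.46% of genes passed, 3.63% as higher and 1.83% as lower, in all 843 genes, and 1350 genes with the title numbers as a replicate block, where Map2 was again the 1 member to pass, of 9 tested, since Dcx had too few reads in E8.5 embryos alone). The median log2 fold change of the 10 was -1.75 at E9.5 and 0.10 at E8.5, against 0.0095 and -0.0097 over all genes. Values below are given for embryos 1, 2 and 3 of each group, and the E9.5 embryos 1 and 2 of both genotypes carry another number in their titles than embryo 3.

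Tubb3 had 131, 160 and 104 CPM in controls and 24.9, 26.5 and 23.8 CPM in KI embryos at E9.5. Every KI embryo was far below every control, also among the embryos that share a title number. The fold was 5.26 between the means (log2 fold change -2.40 ± 0.14, adjusted p = 2.33e-08). At E8.5 Tubb3 had 20.5, 24.9 and 19.4 CPM in controls and 28.0, 23.5 and 22.6 CPM in KI, which overlapped (0.19 ± 0.14, adjusted p = 0.522). Dcx was near the floor at E8.5, with 0 to 6 reads per library, and at E9.5 it had 12.2, 14.4 and 5.95 CPM in controls and 1.28, 1.33 and 1.77 CPM in KI. The KI embryos were again all below the controls (-2.90 ± 0.45, adjusted p = 0.00021).

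Map2 was the gene that differed at both stages. At E8.5 it had 8.26, 7.78 and 7.58 CPM in controls and 3.85, 3.05 and 4.18 CPM in KI (-1.09 ± 0.20, adjusted p = 0.00223), and at E9.5 it had 23.7, 25.1 and 19.1 CPM in controls and 4.72, 6.13 and 8.18 CPM in KI (-1.84 ± 0.19, adjusted p = 8.57e-07). No KI embryo reached the lowest control at either stage. Mapt, in contrast, stayed low in whole embryos, with 6.23, 6.46 and 4.88 CPM in controls and 5.01, 3.13 and 3.45 CPM in KI at E9.5. Those groups overlapped, and the difference did not pass (-0.60 ± 0.29, adjusted p = 0.126).

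Of the growth cone genes, Stmn2 passed the test at E9.5 and Gap43 did not. Stmn2 had 22.2, 23.9 and 17.3 CPM in controls and 8.20, 7.04 and 4.86 CPM in KI at E9.5 (-1.66 ± 0.19, adjusted p = 5.31e-06), and overlapping levels of 16.2 to 22.4 CPM and 17.7 to 23.4 CPM at E8.5. Gap43 was at 49.2, 54.7 and 49.8 CPM in controls and 53.8, 51.7 and 49.0 CPM in KI at E9.5. The genotypes overlapped for Gap43 (0.0055 ± 0.0988, adjusted p = 0.973), and its sign turned to -0.014 with DESeq2 and with relative log expression factors. Gap43 was at 34.1 to 34.5 CPM in controls and 30.3 to 42.1 CPM in KI at E8.5, also overlapping (0.02 ± 0.10, adjusted p = 0.935).

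Of the neurofilament genes, 3 were lower in KI at E9.5. Nefl had 29.5, 38.9 and 23.5 CPM in controls and 9.28, 9.70 and 13.0 CPM in KI (-1.53 ± 0.19, adjusted p = 1.51e-05). Nefm had 84.2, 109 and 66.9 CPM in controls and 23.2, 23.5 and 22.4 CPM in KI (-1.92 ± 0.14, adjusted p = 9.6e-08). Ina had 24.1, 31.0 and 14.8 CPM in controls and 3.89, 4.46 and 3.09 CPM in KI (-2.61 ± 0.25, adjusted p = 2.39e-06). The groups did not overlap for any of these 3, and at E8.5 all 3 overlapped, with Nefl at 11.3 to 16.8 CPM, Nefm at 14.1 to 20.3 CPM and Ina at 7.77 to 13.4 CPM over the 6 embryos. Nefh had a higher mean in KI at E9.5, at 1.08, 0.858 and 1.15 CPM against 0.159, 0.445 and 0.940 CPM in controls, from 4 to 26 reads per library. Its difference did not pass (1.01 ± 0.50, adjusted p = 0.138) but did without control embryo 3 (1.73, adjusted p = 0.0219).

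**Figure D3:**
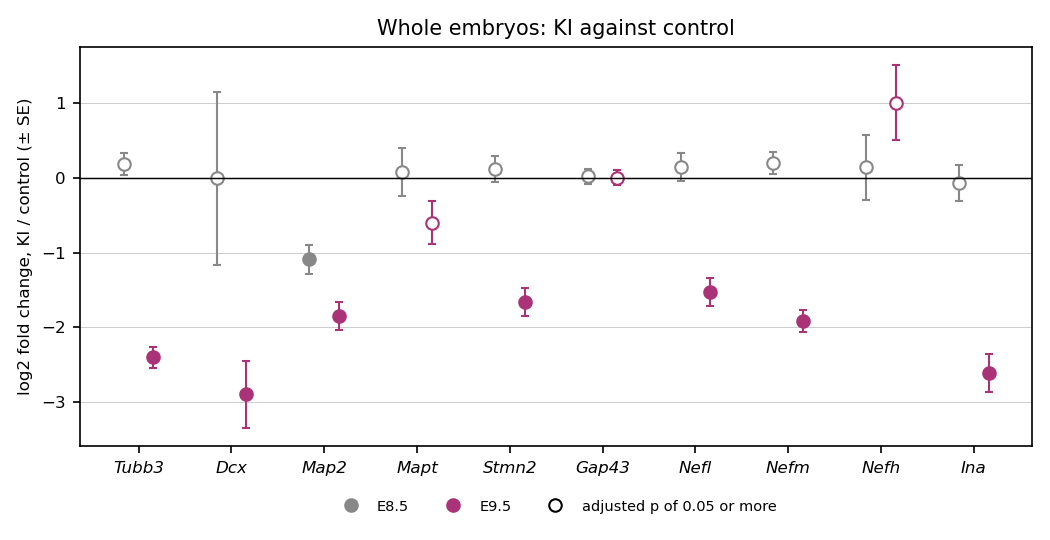
Log2 fold change of KI against control embryos for each gene, with bars of 1 SE; grey is E8.5, purple E9.5, and open circles did not pass an adjusted p of 0.05. At E9.5 the 7 filled points lie between -1.53 (Nefl) and -2.90 (Dcx), Gap43 lies at 0 and Nefh above it, and at E8.5 only Map2 is filled.

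Between the stages, most of these genes rose in control embryos, and as many fell as rose in KI embryos. In controls 8 of the 10 rose from E8.5 to E9.5 and Nefh fell (24.2% of genes passed, 12.2% as higher), with Tubb3 at 2.54 ± 0.14, Nefm at 2.29 ± 0.15 and Mapt at 1.75 ± 0.31, while Stmn2 was at 0.05 ± 0.18. In KI embryos 4 rose (Dcx, Map2, Mapt and Gap43) and 4 fell (Stmn2, Nefl, Nefh and Ina; 32.5% of genes passed, 15.9% as higher). Stmn2 fell by 1.73 (SE 0.19, adjusted p = 4.75e-06) and Ina by 1.50 (SE 0.25, adjusted p = 0.000361). The count of 8 in KI was 5 without KI embryo 1 of E8.5 or of E9.5. The falls of Nefl and Nefh were lost in 4 and 5 of the 6 fits that leave out 1 KI embryo, the rise of Mapt in 2 (adjusted p = 0.0657 and 0.0694 without KI embryo 1 of either stage) and that of Map2 in 2 (adjusted p = 0.052 without KI embryo 2 of E8.5 and 0.0785 without KI embryo 3 of E9.5).

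The change of the KI difference from E8.5 to E9.5 passed for 5 genes, all as lower (6.63% of genes passed, 3.39% as higher and 3.24% as lower). These were Tubb3 (-2.59 ± 0.20, adjusted p = 7.45e-06), Ina (-2.55 ± 0.35, adjusted p = 0.000418), Nefm (-2.12 ± 0.20, adjusted p = 1.68e-05), Stmn2 (-1.78 ± 0.26, adjusted p = 0.000457) and Nefl (-1.67 ± 0.26, adjusted p = 0.00113). For Map2 it was -0.75 ± 0.27 (adjusted p = 0.101, and 0.0355 without KI embryo 3 of E9.5). For Dcx, with few reads at E8.5, it was -2.89 ± 1.15 (adjusted p = 0.151, and 0.0179 with DESeq2).

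Of the 29 other neuronal cytoskeleton genes, 18 were lower and none higher in KI at E9.5 (median -0.45), led by Stmn3 (-1.75), Dpysl4 (-1.31) and Stmn4 (-1.27). At E8.5, 1 was lower (Dpysl4, -0.79) and 1 higher (Tubb2a, 0.31). Of the 15 cytoskeleton genes not particular to neurons, 5 were lower at E9.5 (led by Nes, -1.32, and Tuba1c, -0.33) and 3 higher (led by Krt18, 1.20, and Krt8, 1.04). The neural lists moved in the same direction at E9.5: 6 of 10 tested neuron markers (led by the RNA-binding protein Elavl3, -2.74), 8 of 12 proneural genes (led by Neurod4, -2.28) and 9 of 11 neural progenitor markers (led by Hes5, -1.26) were lower, and none were higher. The sum of the 11 progenitor markers was 896 to 1125 CPM in controls and 615 to 760 CPM in KI, that of the 12 neuron markers 138 to 172 CPM and 77.9 to 89.5 CPM. All 8 heart markers were higher in KI (median 1.37, led by Nkx2-5 at 2.00), with sums of 434 to 575 CPM in controls and 1048 to 1979 CPM in KI and no marker at 0. Of 11 extraembryonic endoderm markers 4 were higher, Gata4, Gata6, Sox17 and Sox7 (sums of the 11 of 249 to 277 CPM and 407 to 543 CPM). Dab2, Foxa2, Lama1, Amn, Cubn, Afp and Ttr did not pass (adjusted p from 0.0641 to 0.978). The part of tissue proportions and of embryo stage in the levels of the cytoskeleton genes was not tested.

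Several of the genes were read at high levels before any neural differentiation. In stem cells Stmn2 was at 275 CPM in flox and 229 and 249 CPM in KI, above its level in neural cultures at day 8. Nefh was at 16.8 CPM in flox and 11.1 and 13.9 CPM in KI, above all 12 embryos, whose highest was 3.16 CPM. Mapt was at 27.9 CPM in flox and 24.2 and 23.8 CPM in KI, and Tubb3 at 98.9 CPM in flox and 45.5 and 52.5 CPM in KI. Gap43, Nefm and Dcx were low in stem cells, with Gap43 at 1.11 CPM in flox and 0.721 and 1.22 CPM in KI, Nefm at 7 to 31 reads and Dcx at 2 reads in flox and 0 in both KI libraries, which allow up to 3 reads or 0.127 CPM on average.

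During embryoid body culture of KI cells the genes changed in both directions. From stem cells to day 4, 4 rose (Dcx, Gap43, Nefl and Nefm) and 4 fell (Tubb3, Map2, Mapt and Stmn2; 47.5% of 16567 genes passed, 25% as higher and 22.4% as lower). Nefl rose to 122 and 144 CPM at day 4 (2.44 ± 0.33, adjusted p = 0.00203), its highest level outside neural cultures. Gap43 rose to 23.4 and 19.2 CPM (4.35 ± 0.30, adjusted p = 6.93e-05), and Dcx to a mean of 2.00 CPM, at least 15.8-fold higher than the stem cell floor. Mapt fell to 1.96 and 2.13 CPM (-3.65 ± 0.17, adjusted p = 5.14e-06) and Stmn2 to 46.9 and 40.0 CPM (-2.56 ± 0.10, adjusted p = 3.25e-06). Without KI library 48 of day 4 the fall of Map2 was lost (adjusted p = 0.0584).

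From day 4 to day 10, 7 of the genes fell in KI embryoid bodies and 2 rose (70.6% of genes passed, 35.4% as higher and 35.1% as lower). Ina fell from 37.7 and 43.3 CPM to 1.38 and 0.791 CPM (-5.33 ± 0.21, adjusted p = 1.71e-06), Nefh to 0.409 and 0.750 CPM and Stmn2 to 6.14 and 5.71 CPM. Tubb3 rose (0.86 ± 0.16, adjusted p = 0.00195), and so did Gap43 (0.92 ± 0.22, adjusted p = 0.00868), which lost its call without KI library 48 of day 4 (adjusted p = 0.0716). Over the 3 days together, none of the 10 differed between KI and flox by edgeR, where 0.73% of genes passed, 0.398% as higher and 0.332% as lower. At an unadjusted p under 0.05 there were 3 (Mapt, Stmn2 and Nefl), and DESeq2 called 2, Stmn2 as lower (-0.51, adjusted p = 0.00699) and Nefl as higher (0.98, adjusted p = 0.0198). Without the flox library of day 4, 1 gene passed, Dcx (-2.92, adjusted p = 0.0457). Nefl had 1.26 to 3.25 times the flox CPM in every KI library of the 3 days, with no test of single days, since flox has 1 library a day.

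In cultures of extraembryonic lineages most of the genes were low, and KI and flox differed in both directions. In trophectoderm 5 were lower in KI (Tubb3, Map2, Stmn2, Gap43 and Ina) and 2 higher (Nefl and Nefm), where 50.9% of 15532 genes passed. In extraembryonic endoderm 2 were lower (Tubb3 and Dcx) and 5 higher (Map2, Mapt, Stmn2, Gap43 and Nefl), where 35.5% passed. Stmn2 had 82.6 and 88.0 CPM in flox trophectoderm and 10.7 and 12.6 CPM in KI (-2.84 ± 0.11, adjusted p = 2.4e-10), and 6.49 and 7.10 CPM in flox endoderm and 9.19 and 8.74 CPM in KI (0.37 ± 0.13, adjusted p = 0.0437). The endoderm call of Stmn2 was lost without any 1 of the 4 endoderm libraries (adjusted p from 0.0772 to 0.221), with DESeq2 (0.093), and when the 4 were fitted alone (0.137). Tubb3 had 122 CPM in both flox endoderm libraries and 43.5 and 51.1 CPM in KI (-1.40 ± 0.11, adjusted p = 4.82e-07), and 8.76 and 8.83 CPM in flox trophectoderm against 5.49 and 3.92 CPM in KI (-0.87 ± 0.15, adjusted p = 0.000329).

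Ina had 7.45 and 6.26 CPM in flox trophectoderm and 1.13 and 2.14 CPM in KI (-2.03 ± 0.30, adjusted p = 5.83e-05). Gap43 had 29.1 and 28.1 CPM in flox trophectoderm and 11.2 and 13.9 CPM in KI (-1.16 ± 0.13, adjusted p = 6.05e-06), and the reverse order in endoderm, at 12.7 and 15.4 CPM in flox and 24.2 and 24.1 CPM in KI (0.75 ± 0.14, adjusted p = 0.0007). Nefl was higher in KI in both, at 3.13 and 2.84 CPM against 5.52 and 6.42 CPM in trophectoderm (1.03 ± 0.20, adjusted p = 0.000505) and 12.3 and 10.3 CPM against 19.7 and 23.0 CPM in endoderm (0.88 ± 0.17, adjusted p = 0.000906). The groups of these 3 genes did not overlap. Several other calls rest on few reads and single libraries. In trophectoderm Map2 lost its call without flox library 1 (adjusted p = 0.0561), flox library 2 (0.068) or KI library 27 (0.0933), and Nefm without flox library 1 (0.117) or KI library 48 (0.0912), while Dcx passed as lower without flox library 2 (0.0492). In endoderm Dcx lost its call without flox library 1 (0.17), flox library 2 (0.0503) or KI library 48 (0.0643), Map2 without flox library 1 (0.0806), and the count of 7 was 4 without flox library 1.

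**Figure D4:**
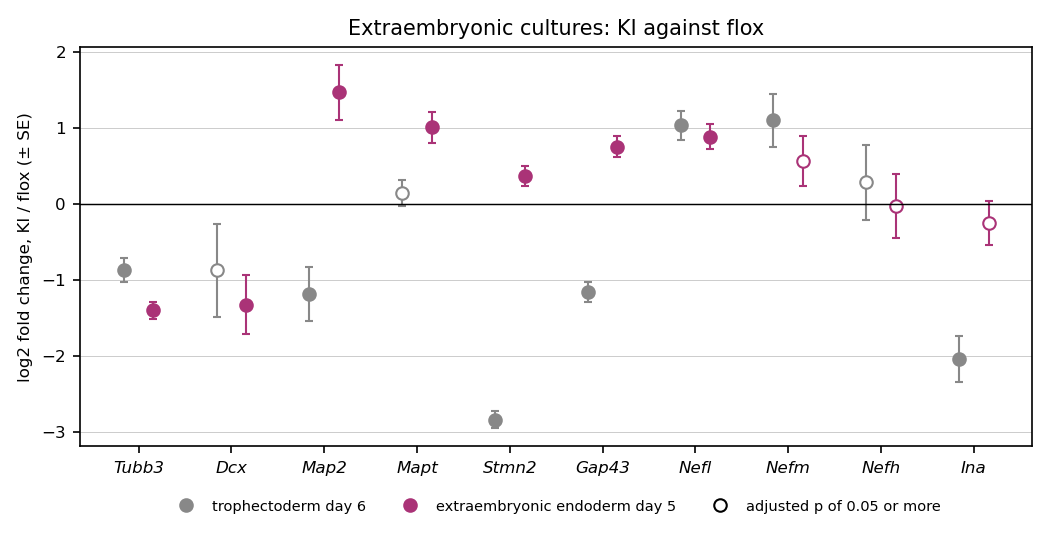
Log2 fold change of KI against flox cultures for each gene, with bars of 1 SE; grey is trophectoderm at day 6, purple extraembryonic endoderm at day 5, and open circles did not pass an adjusted p of 0.05. Stmn2 and Gap43 lie below 0 in trophectoderm (-2.84 and -1.16) and above it in endoderm (0.37 and 0.75), and Nefl lies above 0 in both.

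The difference between the lineages, tested as such, passed for 6 of the 10 (35.3% of genes passed, 17% as lower and 18.3% as higher). Stmn2 (-3.21 ± 0.17, adjusted p = 1.11e-08), Map2 (-2.65 ± 0.51, adjusted p = 0.00131), Gap43 (-1.91 ± 0.19, adjusted p = 4.05e-06), Ina (-1.79 ± 0.42, adjusted p = 0.00401) and Mapt (-0.87 ± 0.27, adjusted p = 0.0216) were relatively lower in trophectoderm, and Tubb3 relatively higher (0.53 ± 0.19, adjusted p = 0.0452). Tubb3 lost that call without KI library 27 of trophectoderm (adjusted p = 0.371), in 5 more of the 8 fits without 1 library (0.0967 to 0.145) and with relative log expression factors (0.0502). Mapt lost its call in 4 of those 8 fits (0.0516 to 0.0865: without flox library 1 of trophectoderm, flox library 1 or 2 of endoderm, or KI library 48 of endoderm). The lineage markers differed too: all 11 extraembryonic endoderm markers were lower in KI endoderm (sums of 2405 to 2408 CPM in flox and 346 to 423 CPM in KI), and 7 of 8 pluripotency markers were lower in KI trophectoderm (sums of 1357 to 1366 CPM and 464 to 655 CPM). The part of the cells with these markers in the levels of the cytoskeleton genes was not tested.

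The proportions of the neurofilament transcripts were compared per length, as ratios of the deposited RPKM values within a library. The ratio of Nefm to Nefl was 1.74 to 1.77 in the 3 control embryos at E9.5 and 1.06 to 1.55 in the 3 KI embryos. In neural cultures it was 0.114 to 0.118 in flox and 0.105 to 0.112 in KI at day 8, and 0.029 to 0.0318 in flox and 0.0305 to 0.0313 in KI at day 16. Medium and light subunit transcripts were therefore near parity or above in embryos, at 0.745 or more in all 12, and Nefm was a small fraction of Nefl in every neural library. KI and flox overlapped in this ratio at day 16, although both genes were higher in KI. The ratio of Ina to Nefl went the other way with culture time, from 0.476 to 0.496 in flox and 0.562 to 0.734 in KI at day 8 to 1.22 to 1.23 and 1.05 to 1.13 at day 16. It was lower in KI than in control embryos at E9.5 (0.21 to 0.408 against 0.557 to 0.725, without overlap), and overlapped at E8.5 (0.548 to 0.743 against 0.587 to 0.842). In trophectoderm it was 1.95 to 2.11 in flox and 0.181 to 0.295 in KI.

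**Figure D5:**
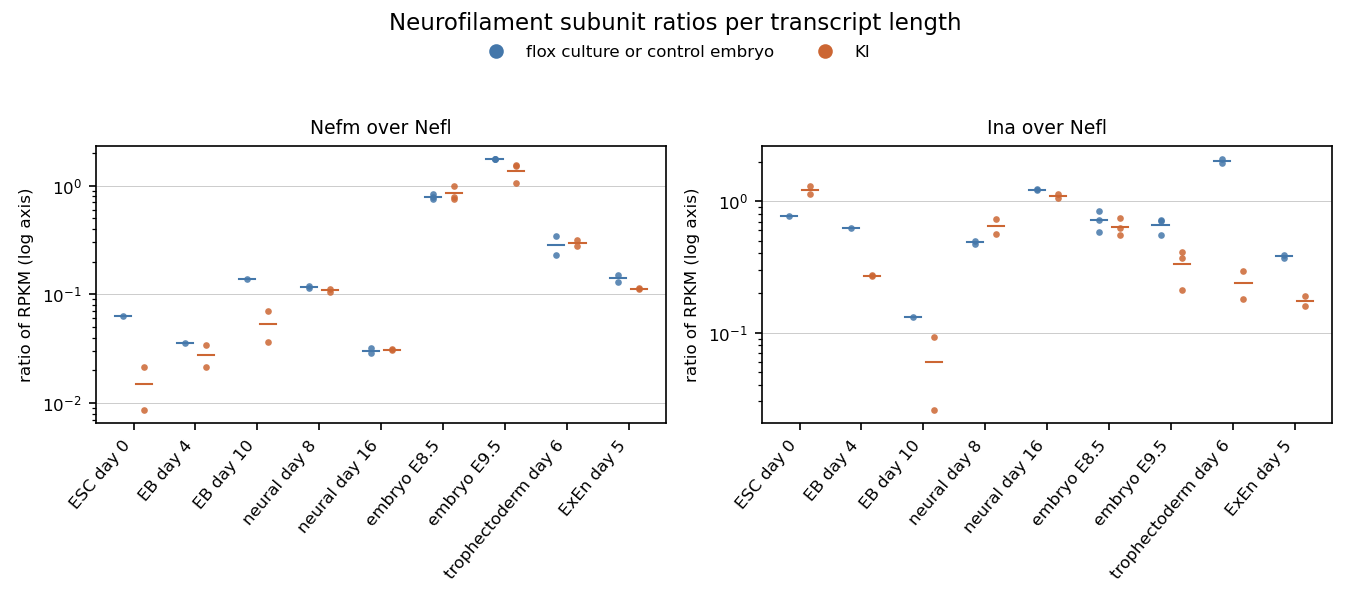
Ratio of RPKM values of Nefm to Nefl (left) and of Ina to Nefl (right) on log axes; points are libraries, short lines the mean of each group, blue the flox cultures or control embryos and orange the KI ones. Nefm over Nefl lies at 0.745 or more in the 12 embryos and at 0.118 or less in the 8 neural libraries, and Ina over Nefl rises above 1 in all 4 neural libraries of day 16.

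The ratio of Mapt to Map2, the axonal and the dendritic binder, also shifted with neural culture. It was 0.28 to 0.287 in flox and 0.38 to 0.404 in KI at day 8, and 3.5 to 4.36 in flox and 2.98 to 3.02 in KI at day 16. In embryos it was 0.161 to 0.296 in controls and 0.33 to 0.612 in KI at E8.5, and 0.262 to 0.269 in controls and 0.432 to 1.09 in KI at E9.5, without overlap at either stage, and in stem cells 2.73 in flox and 1.55 and 1.82 in KI. Per length, the order of the genes at day 16 in flox was Tubb3 (mean RPKM of 357), Mapt (323), Gap43 (306), Stmn2 (236), Ina (231), Nefl (188), Map2 (83.1), Dcx (56.3), Nefm (5.69) and Nefh (2.45). In control embryos at E9.5 it began with Tubb3 (59.5), Gap43 (30.5) and Nefm (20.9). So Nefm ranked high there and near the bottom in flox neural cultures at day 16. The embryos and the neural cultures differ in molecule label, as given below.

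Across the 18 group means the genes varied together to different degrees. Pearson's r of log2(CPM + 1) between 2 members had a median of 0.68 over 45 pairs and ran from -0.07 for Nefm with Nefh to 0.94 for Map2 with Ina. Map2 was the member closest to the mean profile of the 10 (r = 0.987) and Nefh the farthest (r = 0.573). Each member is itself part of that mean, which raises its r, so these values do not compare with those of other genes. The other genes whose profile was most like that mean, among 13518 genes with 10 CPM or more in a group, included Limk1 (r = 0.981), Ncan (0.972), Galnt9 (0.971) and Xkr7 (0.971). Limk1 encodes a kinase of the actin regulator cofilin and Ncan the matrix proteoglycan neurocan. Limk1 had a mean of 88.7 CPM in flox and 79.5 CPM in KI at neural day 8, 133 and 153 CPM at day 16, and 45.6 CPM in control and 30.1 CPM in KI embryos at E9.5. These correlations describe 18 points that share libraries between genes and are spread mostly by the 4 neural groups, and they carry no test.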

How the data were processed

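The authors deposited, per library, a table of 29082 RefSeq transcripts with whole read counts and RPKM values, per the file headers. Of these transcripts 646 carry no gene name and were left out of the tests. RPKM, a level scaled by transcript length and depth, was used as the authors deposited it, and only to set genes against each other within a library. The submitters' processing notes list bcl2fastq, Bowtie2, STAR, SICER 1.1 and the build mm9 without roles. Which program counted the reads, with which annotation, and whether strand was used is not given in the sources used here, so reads from overlapping genes cannot be told apart. The labels' protocols give poly(A) selection for all libraries, while the molecule is labelled polyA RNA for stem cells, embryoid bodies and neural cultures and total RNA for the others, and no test mixes these sets.

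Each gene was represented by its transcript with the most reads. Counts were fitted with edgeR 4.0.16 in R 4.3.3 (filterByExpr by group, TMM factors, glmQLFit and glmQLFTest, Benjamini-Hochberg over all genes tested), in 1 fit each for the 8 neural, 12 embryo, 9 stem cell and embryoid body, and 8 extraembryonic libraries. SE was taken as the absolute log2 fold change over the root of the F statistic. The script was tested on simulated data. Alternatives were DESeq2 1.42.0, relative log expression factors, no filter, reads summed over transcripts, only the groups compared, each library left out in turn, a 2-fold threshold and replicate blocks. All 10 members are named in every comparison. Of the 29 other cytoskeleton genes tested, up to 3 called genes per direction with the largest change are named, and up to 2 of each marker list. More are named of the cytoskeleton genes not particular to neurons at neural day 16, and of the extraembryonic endoderm markers at E9.5. The 5 genes most like the members were ranked by Pearson's r with the mean z-score of the 10, and 1 of them is not reported here. The members and lists were chosen with earlier results of these data known, and the contrast between trophectoderm and endoderm was added after seeing the data.

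Replicate numbers were checked for pairing by correlating deviations from group means. At E8.5 each title number recurs in both genotypes, and same-numbered embryos correlated at 0.25, 0.42 and 0.51, so these numbers were taken to pair them. At E9.5 same-numbered embryos correlated at -0.05 to 0.16. The same number recurs in the titles on each day in neural cultures (0.20 in flox, 0.31 in KI) and KI embryoid bodies (0.47 and 0.19). 1 double knockout neural library was not analysed here.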

Additional observations from a re-analysis of the deposited data

Results flagged for a closer look

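The KI difference depended on the day in neural cultures for all 10 genes, by the test of the difference between the day 16 and the day 8 effect within 1 fit. The values on the log2 scale were 1.25 for Tubb3, 1.43 for Dcx, 1.60 for Map2, 0.76 for Mapt, 1.78 for Stmn2, 0.80 for Gap43, 1.36 for Nefl, 1.50 for Nefm, 1.72 for Nefh and 0.77 for Ina.

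In embryos the KI difference depended on the stage for 5 genes, with values for E9.5 less E8.5 of -2.59 for Tubb3, -1.78 for Stmn2, -1.67 for Nefl, -2.12 for Nefm and -2.55 for Ina. Between trophectoderm and extraembryonic endoderm it differed for 6, at 0.53 for Tubb3, -2.65 for Map2, -0.87 for Mapt, -3.21 for Stmn2, -1.91 for Gap43 and -1.79 for Ina.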

How the results depend on the processing

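No called gene changed direction under any alternative run: 54 reversed values came from 24 differences that did not pass. With a 2-fold threshold the counts of genes called were 0 in place of 5 at neural day 8, 3 in place of 10 at neural day 16, 5 in place of 8 between stages in KI embryos and 4 in place of 7 in extraembryonic endoderm, because that threshold is stricter by construction. With reads summed over transcripts 4 calls were lost, Nefl (adjusted p = 0.0508) and Nefh (0.0537) between stages in KI embryos, Stmn2 in endoderm (0.0544) and Tubb3 between the extraembryonic lineages (0.0701). Over the embryoid body course DESeq2 called 2 in place of 0, and the cause was not tested. Leaving out 1 library gave 5 to 7 genes between stages in KI embryos, 4 to 6 in extraembryonic endoderm and 0 to 1 over the embryoid body course, with fewer samples in the fit. Dcx was not tested where E8.5 embryos or trophectoderm cultures were fitted alone, the E8.5 block included. A replicate block called 1 gene at E8.5, 7 at E9.5, 9 in flox and 10 in KI between neural days, 10 for their difference, and 8 and 9 between days of KI embryoid bodies, the counts found without the pairing.

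Of the differences that turned, Gap43 at E9.5 was -0.014 with DESeq2, -0.014 with relative log expression factors and -0.0085 with no filter, and Dcx at E8.5 was 0.0049 with no filter. Without stem cells, the embryoid body course gave 0.15 for Tubb3, -0.14 for Map2, 0.26 for Nefm and 0.34 for Nefh, and with only KI line 48 it gave 0.20 for Nefh. Leaving out 1 library gave the following ranges, the cause not tested. Over that course they were -0.76 to 0.15 for Tubb3, -0.14 to 0.24 for Map2, -1.07 to 0.26 for Nefm, -0.40 to 0.38 for Nefh, -0.16 to 0.44 for Gap43 and -2.92 to 1.15 for Dcx. At E8.5 they were -1.32 to 0.54 for Dcx, -0.26 to 0.090 for Ina, -0.12 to 0.39 for Mapt, -0.13 to 0.10 for Gap43 and -0.12 to 0.34 for Nefh. At E9.5 Gap43 ran from -0.039 to 0.044, and its change of effect between stages from -0.10 to 0.13. Between stages Tubb3 ran from -0.13 to 0.036 in KI and Stmn2 from -0.080 to 0.15 in controls. In neural cultures Gap43 at day 8 ran from -0.10 to 0.51 and Nefl between days in flox from -0.093 to 0.24. In trophectoderm the ranges were -1.52 to 0.14 for Dcx, -0.41 to 0.72 for Nefh and -0.0015 to 0.23 for Mapt, and in endoderm -0.17 to 0.12 for Nefh. Between these lineages they were -0.38 to 0.76 for Nefh, -0.20 to 1.47 for Dcx and -0.014 to 0.24 for Nefl. With 2 or 3 libraries a group, and at most 36 reads of Nefh and 18 of Dcx per trophectoderm library, smaller differences may go unseen.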
